A study of Mus musculus with 24 samples.

Results

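The arrays described here form a 2 × 2 design of a histone deacetylase (HDAC) inhibitor and a phosphodiesterase 5 (PDE5) inhibitor: replicates 1 to 3 of saline, SAHA, Tadalafil, and SAHA and Tadalafil, which are 12 of the 24 arrays in the series. Total hippocampal RNA was hybridised to Affymetrix Mouse Gene 2.0 ST arrays, and all values are log2 expression after robust multi-array averaging (RMA). The animals of all 4 groups were female Tg2576 mice, which carry human APP with the Swedish mutation under the prion promoter, so the transgene is shared by the controls and is not limited to the hippocampus. The labels give the strain background as B6.Cg-Tg(APPswe)E1-2Dbo/J and an age of 16 to 18 months. Vehicle, SAHA (vorinostat), Tadalafil or both drugs were given for 4 weeks. The control group is called saline here, while its sample titles say vehicle, which per the paper contained DMSO. Behavioural tests fell in the later weeks of treatment. The hippocampus was taken after 4 weeks without drug and a reversal phase in the water maze. The expression values are therefore those of animals off drug, killed on the day after their last maze trial, with 1 hippocampus of each of 3 animals per group used per the methods. No wild-type animals were among these arrays. For each of 19663 genes the interaction was computed as combination minus SAHA minus Tadalafil plus saline. It is 0 where the log2 effects of both drugs add up, positive where the combination lies above that sum, and negative where it lies below. Because the third saline array stood apart, every interaction was computed over all 12 arrays and over the 11 arrays without it.

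HDAC inhibitors such as SAHA keep acetyl groups on histone tails and thereby favour an open chromatin at many promoters. Tadalafil blocks PDE5, the enzyme that degrades cGMP, and cGMP acts through protein kinase G, which can phosphorylate the transcription factor CREB. CREB in turn recruits histone acetyltransferases to activity-dependent genes. The paper proposes that PDE5 inhibition could steer the effect of histone acetylation towards CREB-dependent genes. In the hippocampus such genes include immediate early genes, which are switched on within minutes of neuronal activity and are short-lived.

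The samples carried the markers of the labelled tissue, with 1 clear exception and 1 further array low in dentate gyrus markers. The mean of 7 CA1 pyramidal cell markers lay between 8.51 and 8.81 in 11 of the arrays and at 7.16 in saline replicate 3. In that same array 10 thalamus markers averaged 9.16, against 7.95 in saline replicate 2 and 7.19 to 7.44 in the others. Tcf7l2, a transcription factor of thalamic neurons, was at 10.55, against 7.18 in saline replicate 2 and 5.84 to 6.91 elsewhere. The array weight of saline replicate 3 in limma was 0.24, the lowest of the 12, where the others ranged from 0.70 to 1.76. The mean of 8 dentate gyrus markers was 7.36 in combination replicate 3, which stayed in both fits. It was 7.15 in saline replicate 3 and 7.8 to 8.2 in the other arrays. RNA of the choroid plexus, the tissue in the ventricles that makes cerebrospinal fluid, was unevenly represented. The mean of its 11 measured markers was 6.90, 6.53 and 6.50 in saline, 8.59, 7.21 and 8.74 in SAHA, 6.55, 6.95 and 8.37 in Tadalafil, and 7.22, 7.06 and 6.45 in the combination. SAHA replicates 1 and 3 and Tadalafil replicate 3 were thus the high arrays. None of the 11 markers was at the detection floor of 4, the lowest single value being 5.33 for Otx2. In bulk tissue, fewer cells of a type and less RNA per cell cannot be told apart.

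**Figure D1:**
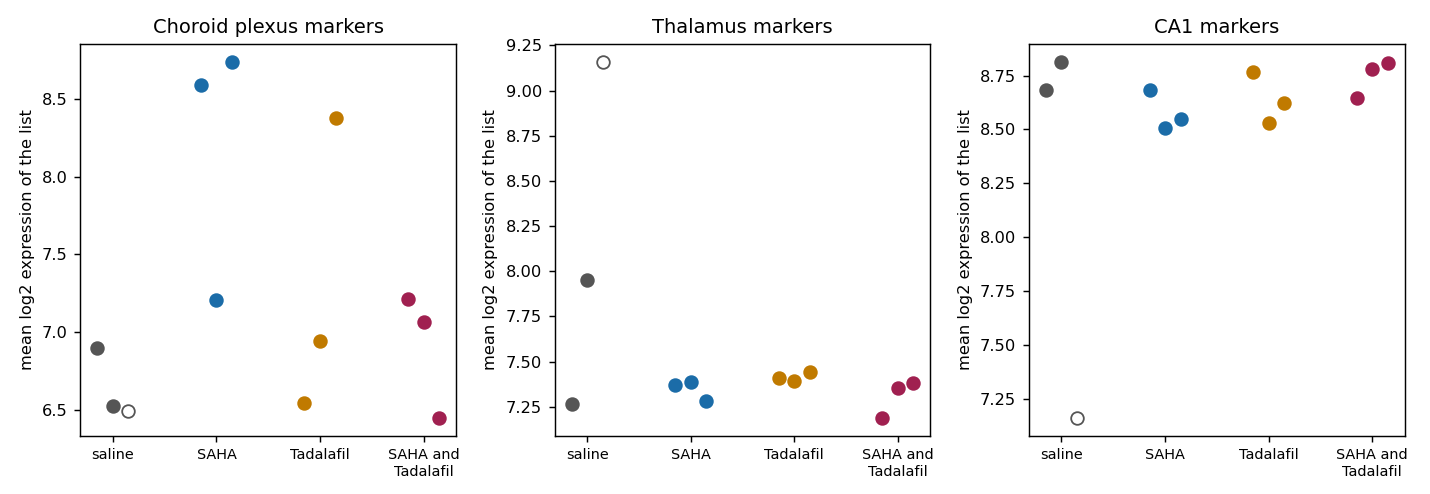
Mean log2 expression of choroid plexus, thalamus and CA1 markers in each of the 12 arrays, by group; each point is 1 array and the open point is saline replicate 3. Saline replicate 3 lies at 9.16 for thalamus and 7.16 for CA1 markers, and 3 single-drug arrays lie above 8.3 for choroid plexus markers.

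The first question was whether any gene departed from additivity. No gene passed an adjusted p of 0.05 in limma (Benjamini-Hochberg over 19663 genes, 0% called). The smallest adjusted p was 0.123 over 12 arrays, for Fmo2, and 0.0551 over 11 arrays, for Ciart. At an unadjusted p under 0.05, 670 genes had a positive interaction (3.41%) and 566 a negative one (2.88%) over 12 arrays. Over 11 arrays these counts were 957 (4.87%) and 694 (3.53%). The interaction sums 4 group means and is thus imprecise, with a median 95% interval of 0.39 to either side. No single-drug or combination effect against saline passed either over 12 arrays, and the share of genes above and below saline at unadjusted p under 0.05 was 3.46% and 4.96% for SAHA, 2.37% and 3.09% for Tadalafil, and 2.26% and 3.22% for the combination. All of these comparisons share the saline arrays. Over 11 arrays 1 gene passed for SAHA against saline, Ciart (0.00509% of the genes tested). All genes and values below are therefore given as levels and estimates, none of which passed the adjusted test for the interaction unless stated.

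Of all genes, 84.0% kept the sign of the interaction when saline replicate 3 was left out. A set of 882 genes (4.49%) had an unadjusted p under 0.05 and the same sign in both fits, 479 positive and 403 negative. Among the 479 positive genes both single drugs lay below saline in 465. In 280 of these 465 the combination lay between saline and the smaller single-drug effect, and in 163 it lay above saline. The 403 negative genes mirrored this, with both single drugs above saline in 390, the combination in between in 224 and below saline in 146. Since the interaction itself contains these means, this shape is a description and was not tested. In no gene of the 882 did both single drugs point the same way as the interaction. In the other 14 positive and 13 negative genes the single drugs lay on opposite sides of saline.

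**Figure D2:**
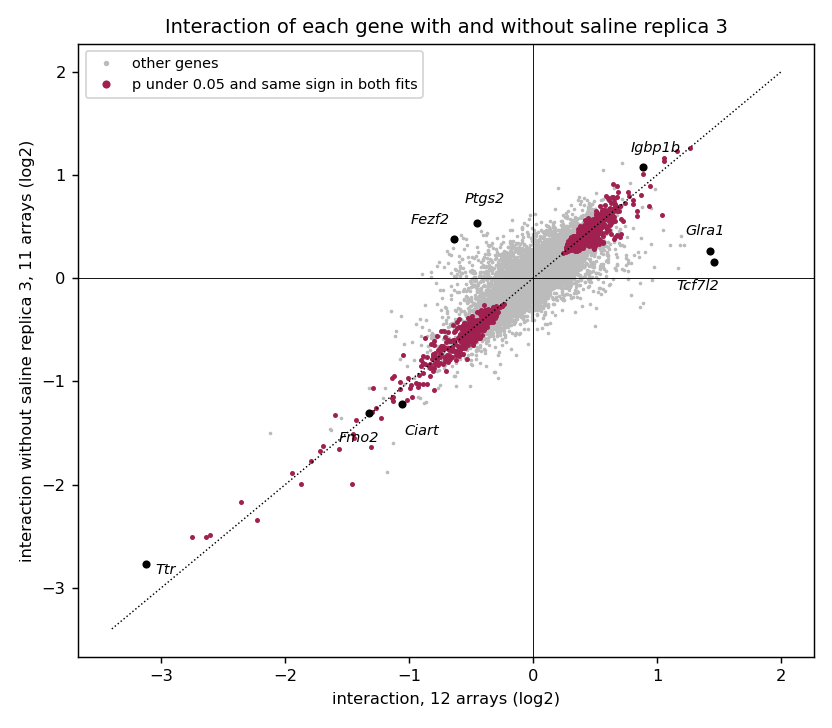
Interaction of each of the 19663 genes (log2) over 12 arrays on the horizontal axis and over 11 arrays, without saline replicate 3, on the vertical axis; the dotted line marks equal values and dark red points are the 882 genes with unadjusted p under 0.05 and the same sign in both fits. Fmo2 and Ciart lie on or near the line, whereas Tcf7l2 and Glra1 (positive over 12 arrays) and Fezf2 and Ptgs2 (negative over 12 arrays) lie far from it.

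The gene with the smallest p over 12 arrays was Fmo2, which encodes a flavin-containing monooxygenase that oxidises foreign compounds and is inducible by glucocorticoids. Its level was 5.96, 5.92 and 5.89 in saline, 6.78, 6.29 and 6.57 in SAHA, 6.79, 6.68 and 6.67 in Tadalafil, and 5.83, 6.16 and 6.06 in the combination. All 6 single-drug arrays were above all 6 others, and the combination overlapped saline. Additive effects would have placed the combination at 7.34. The interaction was -1.32 ± 0.18 (SE; 95% interval -1.71 to -0.94; limma adjusted p = 0.123), a 2.50-fold shortfall, and -1.31 without saline replicate 3.

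Ciart, a repressor of the circadian activator pair CLOCK and BMAL1, had the smallest p over 11 arrays. It measured 7.13, 7.16 and 7.64 in saline, 8.20, 8.28 and 7.99 in SAHA, 7.86, 7.97 and 7.74 in Tadalafil, and 7.62, 7.69 and 7.62 in the combination. Every single-drug array exceeded every saline and combination array, and saline replicate 3 was the highest of its group. The interaction was -1.06 ± 0.19 over 12 arrays and -1.22 over 11 (adjusted p = 0.437 and 0.0551 in limma). SAHA alone exceeded saline by 1.01 over 11 arrays with an adjusted p of 0.0192. That call was lost when saline replicate 1 or 2, SAHA replicate 1 or any single combination array was left out.

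Lncpint, a p53-inducible long non-coding RNA, was at 9.35, 9.32 and 9.35 in saline, 9.97, 9.99 and 10.03 in SAHA, 9.65, 9.81 and 9.67 in Tadalafil, and 9.76, 9.45 and 9.36 in the combination. SAHA alone gave the highest arrays, and 1 combination array reached the range of Tadalafil. The interaction was -0.84 ± 0.15 (limma adjusted p = 0.437). Slc16a4, of the monocarboxylate transporter family, showed the same order of groups at 5.63, 5.77 and 5.77 in saline, 6.54, 6.19 and 6.67 in SAHA, 6.04, 6.08 and 6.51 in Tadalafil, and 5.75, 5.71 and 6.00 in the combination (interaction -1.13 ± 0.21). With the choroid plexus mean of each array as a covariate its p was 0.00846, the highest over all settings tried. Ifit1, an interferon-induced RNA-binding protein, differed in that the combination lay below saline: 5.94, 5.78 and 6.07 in saline, 6.21, 5.99 and 6.11 in SAHA, 6.22, 6.41 and 6.67 in Tadalafil, but 5.44, 5.68 and 5.73 in the combination (interaction -0.99 ± 0.18). The other negative genes of smallest p were Platr30, a long non-coding RNA (-0.79), Kcnh4, a voltage-gated potassium channel (-0.70), Btg2 (-1.29), Ctsk, the protease cathepsin K (-0.77), and Sec14l3, of a family of lipid-binding proteins (-0.74).

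Among the 10 positive genes of smallest p, 2 belong to mitochondrial protein synthesis. Tufm, the mitochondrial elongation factor Tu, was at 8.87, 8.91 and 8.90 in saline, 8.44, 8.32 and 8.36 in SAHA, 8.71, 8.51 and 8.55 in Tadalafil, and 8.66, 8.83 and 8.82 in the combination. SAHA and saline did not overlap, and the combination returned to within 0.12 of saline on average (interaction 0.70 ± 0.12). Mrpl36, a protein of the large mitochondrial ribosomal subunit, was at 5.95, 5.94 and 5.77 in saline, 5.49, 5.51 and 5.57 in SAHA, 5.98, 5.65 and 5.77 in Tadalafil, and 5.96, 6.16 and 6.04 in the combination (interaction 0.62 ± 0.15). Only SAHA alone was separated from the other groups here.

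Mettl16, an RNA adenosine methyltransferase, was at 8.10, 8.22 and 8.04 in saline, 7.76, 7.88 and 7.92 in SAHA, 7.89, 7.59 and 7.78 in Tadalafil, and 8.06, 8.19 and 8.11 in the combination (interaction 0.63 ± 0.14). The 6 single-drug arrays were below the 6 others. Polr2i, a subunit of RNA polymerase II, was at 7.10, 7.06 and 7.08 in saline, 6.52, 6.74 and 6.58 in SAHA, 7.07, 6.69 and 6.89 in Tadalafil, and 7.02, 7.12 and 6.96 in the combination (0.61 ± 0.15). Again SAHA alone was the low group, while Tadalafil overlapped all others. The remaining positive genes were Tmem60, a membrane protein (0.66), Slc25a41, a mitochondrial carrier (0.69), Gpr55, a receptor for lysophosphatidylinositol (0.49), Spry4, an inhibitor of receptor tyrosine kinase signalling (0.62), and Olfr524 (0.77) and Usp17ld (0.68), members of large gene families whose near-identical copies may share probes.

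**Figure D3:**
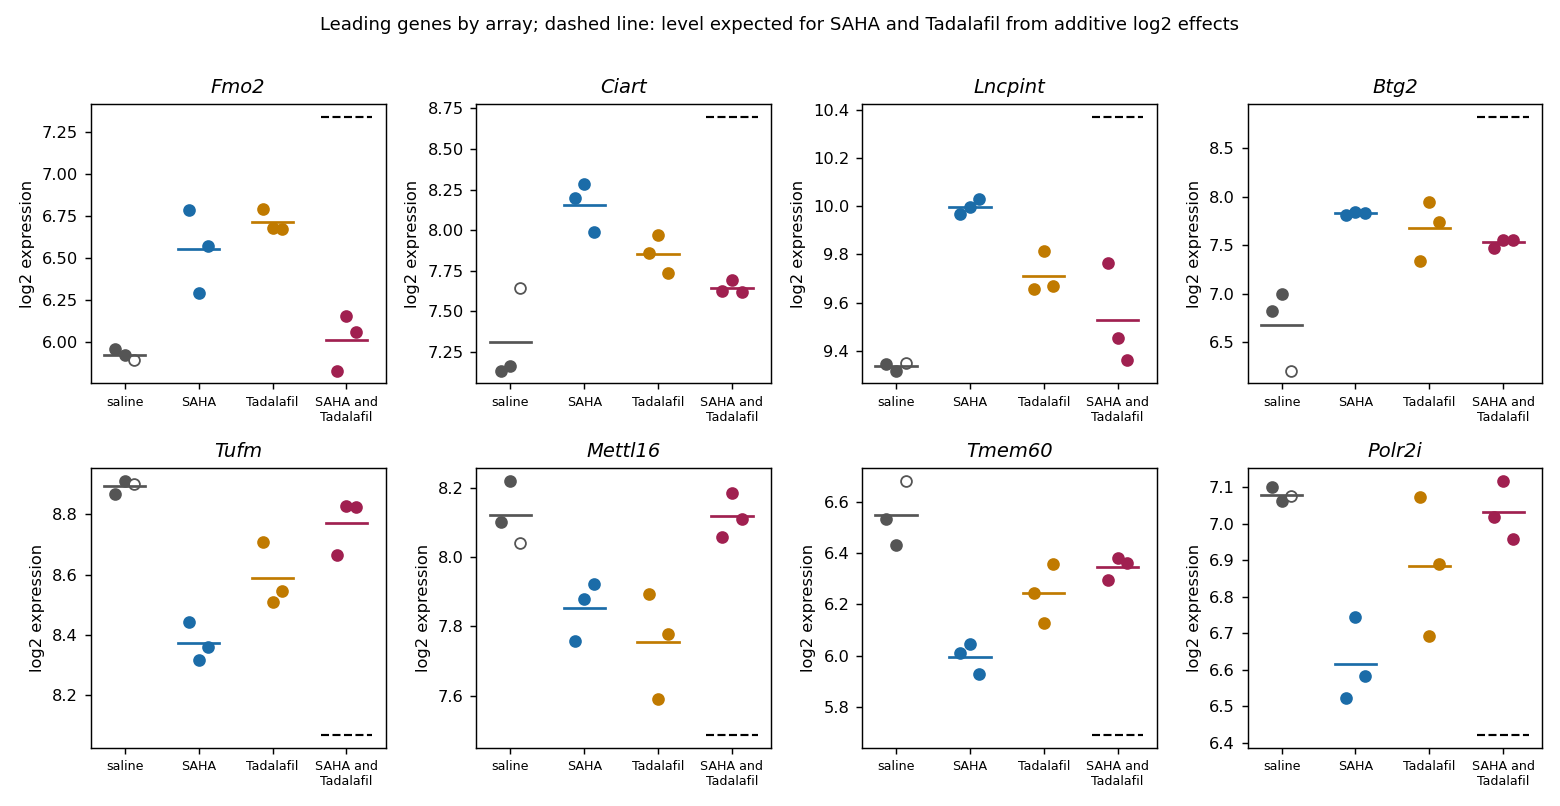
Log2 expression of 4 genes with negative (top row) and 4 with positive interaction (bottom row) in each of the 12 arrays; points are arrays, solid lines group means, the open point is saline replicate 3, and the dashed line is the level additive log2 effects would give for the combination. The combination lies below that level for Fmo2 (7.34 expected) and the other genes of the top row and above it in the bottom row.

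Replicates 4 to 7 of saline and of the combination are separate animals that did not enter these fits, and they hold no single-drug group, so they bear on the combination effect alone. In them the combination minus saline ranged from -0.18 (Kcnh4) to 0.28 (Lncpint) over the 20 leading genes, and 2 of the 20 had an unadjusted p under 0.05 (Lncpint and Mettl16). No gene of the whole table passed an adjusted p of 0.05 there (limma, 8 arrays, 0%), with 591 genes above (3.01%) and 709 below (3.61%) at an unadjusted p under 0.05. For Fmo2 the difference was -0.07 ± 0.17 and for Ciart -0.09 ± 0.08, whereas Ciart in the combination exceeded saline by 0.33 ± 0.14 in the first set. Btg2 was 0.85 ± 0.19 above saline in the first set and 0.08 ± 0.12 above it in replicates 4 to 7.

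CREB target genes were examined as a group of 41, all measured. Over 12 arrays 13 had an interaction above 0 and the median was -0.18, against 0.02 over all genes. Without saline replicate 3, 25 of 41 were above 0 and the median was 0.11, against 0.03, so the direction of the group depended on that array. In it the mean of the 41 genes was 7.28 against 7.79 to 8.10 in the other arrays. At unadjusted p under 0.05, 4 members were positive and 7 negative over 12 arrays, and 7 were positive and 6 negative over 11. The shares of all genes at that p were 3.41% and 2.88% over 12 arrays, and 4.87% and 3.53% over 11. Above 0 were 54.1% and 55.9% of all genes.

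A subset of the immediate early genes was sub-additive in both fits. Btg2, an antiproliferative transcriptional cofactor, was at 6.82, 6.99 and 6.21 in saline, 7.81, 7.84 and 7.83 in SAHA, 7.34, 7.94 and 7.74 in Tadalafil, and 7.47, 7.56 and 7.56 in the combination (interaction -1.29 ± 0.26, and -1.06 without saline replicate 3). Every treated array exceeded every saline array, and both drugs together were no higher than either alone. Dusp1, a phosphatase that switches off MAP kinases, was at 7.93, 8.0 and 7.94 in saline, 8.86, 9.09 and 8.67 in SAHA, 8.26, 8.79 and 9.0 in Tadalafil, and 8.53, 8.39 and 8.64 in the combination (-1.08 ± 0.24 and -1.07). Npas4, an activity-induced transcription factor of inhibitory synapse formation, was at 6.88, 7.07 and 6.45 in saline, 7.86, 8.23 and 7.84 in SAHA, 7.28, 8.0 and 8.29 in Tadalafil, and 7.92, 7.69 and 8.12 in the combination (-1.12 ± 0.34 and -0.95); it was named after its values had been seen. For these 3 genes the combination stood 0.57 to 1.11 above saline, and for Dusp1 all combination arrays lay below all SAHA arrays. Sik1, a kinase that restrains CREB coactivators, and Tiparp, an ADP-ribosyltransferase, had interactions of -0.42 and -0.50 (-0.37 and -0.45 over 11 arrays), and Per1 of -0.45 (-0.33 over 11). In Fos, the classical immediate early gene, the interaction was -0.67 ± 0.30 over 12 arrays and -0.69 over 11, where its unadjusted p no longer fell under 0.05.

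Other CREB targets ran the opposite way. Vgf, a neuropeptide precursor, was at 8.84, 9.02 and 8.73 in saline, 8.64, 8.41 and 8.40 in SAHA, 8.70, 8.49 and 8.63 in Tadalafil, and 8.75, 8.73 and 8.88 in the combination (0.56 ± 0.15, and 0.62 without saline replicate 3). All single-drug arrays were below all others. Nptx2, a secreted protein that clusters AMPA receptors, had an interaction of 0.58 ± 0.24 and, without saline replicate 3, of 0.80. Inhba, an activin subunit, and Egr3, an immediate early transcription factor, were at 6.17 and 6.52 in saline replicate 3 against 7.12 and 7.28, and 8.53 and 8.53, in the other saline arrays. Their interactions moved from 0.33 to 0.67 and from -0.33 to 0.34 when it was left out. Ptgs2, the inducible cyclooxygenase, moved from -0.45 to 0.53 in the same way.

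The promoters of the 3 sub-additive early genes are shown, and each holds the cAMP response element that CREB binds, in full or as its short core. The windows run from 250 bases before to 50 after the annotated start (RefSeq, GRCm38.p6), 5′ to 3′ on the strand of the gene, with the short core TGACG and its reverse complement in capitals; a run of 8 capitals is the full palindrome TGACGTCA, in which both short cores overlap. The window of Btg2 is chr1:134079106-134079405, minus strand, that of Dusp1 chr17:26508423-26508722, minus strand, and that of Npas4 chr19:4989922-4990221, minus strand.
Btg2: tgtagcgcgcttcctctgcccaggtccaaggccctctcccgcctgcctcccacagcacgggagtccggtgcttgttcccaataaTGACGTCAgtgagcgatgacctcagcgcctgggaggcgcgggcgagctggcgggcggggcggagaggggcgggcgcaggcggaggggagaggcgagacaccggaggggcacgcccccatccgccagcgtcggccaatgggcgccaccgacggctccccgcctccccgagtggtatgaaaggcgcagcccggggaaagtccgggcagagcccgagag
Dusp1: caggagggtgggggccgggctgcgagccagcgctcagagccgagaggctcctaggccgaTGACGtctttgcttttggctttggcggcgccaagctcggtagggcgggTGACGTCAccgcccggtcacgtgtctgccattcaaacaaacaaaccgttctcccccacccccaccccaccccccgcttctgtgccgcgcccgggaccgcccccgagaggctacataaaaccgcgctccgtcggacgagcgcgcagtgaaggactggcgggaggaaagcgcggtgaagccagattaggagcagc
Npas4: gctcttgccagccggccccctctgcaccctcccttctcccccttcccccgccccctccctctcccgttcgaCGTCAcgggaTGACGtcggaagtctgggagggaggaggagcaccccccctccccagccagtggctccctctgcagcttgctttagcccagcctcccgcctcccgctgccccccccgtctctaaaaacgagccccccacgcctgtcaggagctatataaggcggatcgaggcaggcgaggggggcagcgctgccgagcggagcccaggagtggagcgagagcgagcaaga
The palindrome was present in Btg2, from position -166 relative to the start, and in Dusp1, from -143, whereas Npas4 held short cores only. Windows of Cartpt, Pcsk1, Scg2 and Sst held the palindrome as well. Whether the element goes with the interaction was not tested. Over all 32851 windows, 1.79% held the palindrome, 20.8% the short core and 35.7% a GC box (GGGCGG, the site of Sp1). Of the 41 CREB targets 30 had a window, and 6 of these genes held the palindrome, 23 (76.7%) the short core and 22 (73.3%) a GC box; the list was assembled from known targets, so these shares describe the list. Of the 88 genes named by rule, 67 had a window, with the palindrome in 2.99%, the short core in 28.4% and the GC box in 61.2%, against 2.88%, 29.1% and 55.1% of the 15053 tested genes with a window.

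Genes of the circadian clock were the next group, a list first drawn up after Ciart had been seen. In the clock, CLOCK and BMAL1 (the product of Arntl) activate the period genes and the output factors, which feed back on them. Over 12 arrays 4 of 16 measured clock genes had an interaction above 0 and the median was -0.22, and over 11 arrays the count was 4 and the median -0.23. At unadjusted p under 0.05, 1 was positive and 3 were negative over 12 arrays, and 2 and 5 over 11. For comparison, 54.1% of all genes were above 0 over 12 arrays and 55.9% over 11. At that p 3.41% of all genes were positive and 2.88% negative over 12 arrays, and 4.87% and 3.53% over 11. Dbp, an output transcription factor, was at 9.38, 9.48 and 9.62 in saline, 9.77, 9.95 and 9.83 in SAHA, 9.83, 9.94 and 9.97 in Tadalafil, and 9.54, 9.89 and 9.71 in the combination (-0.56 ± 0.15, and -0.62 over 11 arrays). Saline was the lowest group and the combination overlapped both single drugs. Per1, a period gene that is also a CREB target, had an interaction of -0.45 ± 0.16, and Cry1 and Nr1d2, further repressors, of -0.34 and -0.25 (-0.52 and -0.42 over 11 arrays). Arntl ran the other way at 8.85, 9.01 and 8.68 in saline, 8.62, 8.72 and 8.35 in SAHA, 8.54, 8.61 and 8.66 in Tadalafil, and 8.71, 8.80 and 8.72 in the combination (0.42 ± 0.16, and 0.50 over 11 arrays). Nfil3, which represses at the sites that Dbp activates, was also above 0 (0.30 ± 0.14). The other 2 genes above 0 over 12 arrays were Clock (0.07) and Bhlhe40 (0.02). The labels give no time of day for the dissections, and its part in these values was not tested.

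The promoter of Ciart (chr3:95882179-95882478, minus strand) is shown with the E-box CACGTG, the site of CLOCK and BMAL1, in capitals.
Ciart: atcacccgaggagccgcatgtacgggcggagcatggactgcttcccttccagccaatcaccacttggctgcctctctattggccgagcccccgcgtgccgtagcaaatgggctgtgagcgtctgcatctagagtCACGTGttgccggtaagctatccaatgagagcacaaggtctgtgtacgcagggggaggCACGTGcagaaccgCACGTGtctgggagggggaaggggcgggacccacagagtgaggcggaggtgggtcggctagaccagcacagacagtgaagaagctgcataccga
It held 3 E-boxes, at positions -116, -58 and -44, where 7.15% of all windows held at least 1. Of 15 clock genes with a window, 5 (33.3%) held an E-box, against 9.99% of the 15053 tested genes with a window.

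Chaperones had positive interactions in nearly all members in both fits. These proteins fold others in the cytosol and in the endoplasmic reticulum (ER). All 12 measured members were above 0 over 12 arrays (median 0.29, with 5 at unadjusted p under 0.05) and 11 of 12 over 11 arrays (median 0.32, with 6), against 10633 of 19663 and 10992 of 19663 of all genes. At that unadjusted p 3.41% of all genes were positive over 12 arrays and 4.87% over 11. No member passed the adjusted test. Hspa5, the ER chaperone BiP, was at 8.91, 9.24 and 9.0 in saline, 8.83, 8.63 and 8.87 in SAHA, 8.73, 8.76 and 8.74 in Tadalafil, and 9.07, 8.87 and 8.84 in the combination (0.46 ± 0.15). Calr, the ER lectin calreticulin, was at 10.61, 10.76 and 10.42 in saline, 10.23, 10.09 and 10.42 in SAHA, 10.28, 10.26 and 10.34 in Tadalafil, and 10.39, 10.28 and 10.42 in the combination (0.42 ± 0.15). In both genes saline was at or above the single drugs in every array, while the mean of the combination lay in between. Hsph1, a cytosolic nucleotide exchange factor for Hsp70, had an interaction of 0.44 ± 0.17 (0.54 over 11 arrays), Hyou1, an ER chaperone, of 0.36 ± 0.14, and Hspa1a, an inducible Hsp70, of 0.38 ± 0.15. Ddit3, the stress-induced factor CHOP, was at the low end with 0.03, and -0.19 over 11 arrays. Hspa1b, a near-identical copy of Hspa1a whose probes may be shared, had 0.06. The median of the list stayed between 0.15 and 0.38 under every setting tried in either fit. In replicates 4 to 7 the list's median combination effect against saline was 0.07, with 8 of 12 above 0. Over all genes that median was 0.0006, with 9863 of 19663 above 0. In the first set the list's median was -0.06 over 12 arrays and -0.11 over 11.

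The promoters of Hspa5 (chr2:34771840-34772139, plus strand) and Calr (chr8:84846882-84847181, minus strand) are shown with the ER stress element in capitals, which was searched on both strands as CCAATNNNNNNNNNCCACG.
Hspa5: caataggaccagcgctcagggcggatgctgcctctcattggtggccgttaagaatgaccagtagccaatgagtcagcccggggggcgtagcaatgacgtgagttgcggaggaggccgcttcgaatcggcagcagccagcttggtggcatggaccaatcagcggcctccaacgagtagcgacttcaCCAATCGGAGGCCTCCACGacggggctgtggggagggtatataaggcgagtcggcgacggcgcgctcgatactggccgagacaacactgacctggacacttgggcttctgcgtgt
Calr: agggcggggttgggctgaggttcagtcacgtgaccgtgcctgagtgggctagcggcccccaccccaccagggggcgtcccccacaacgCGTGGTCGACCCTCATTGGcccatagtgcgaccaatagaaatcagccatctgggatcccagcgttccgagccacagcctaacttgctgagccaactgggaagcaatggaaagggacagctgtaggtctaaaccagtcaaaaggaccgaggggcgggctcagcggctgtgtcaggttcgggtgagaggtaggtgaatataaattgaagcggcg
The element began at position -65 in Hspa5 and, on the opposite strand, at -162 in Calr. Hsp90b1 also held it, so that 3 of 9 chaperone genes with a window had it. Of the 15053 tested genes with a window 0.159% held it, and of all windows 0.119%. The E-box and the ER stress element were added to the search after the expression values had been seen.

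Glucocorticoid-induced genes, a list first drawn up after Fmo2 had been seen, were all below 0 over 12 arrays (14 of 14, median -0.32, 4 at unadjusted p under 0.05), where 9030 of 19663 genes were below 0 and 2.88% were negative at that p. Without saline replicate 3, 10 of 14 were below 0 (median -0.25, 5 at unadjusted p under 0.05), against 8671 of 19663 and 3.53%. Besides Fmo2, Sgk1, a kinase that regulates ion channels, was at 8.36, 8.45 and 8.41 in saline, 9.22, 8.61 and 9.13 in SAHA, 8.72, 8.22 and 8.79 in Tadalafil, and 8.29, 8.71 and 8.45 in the combination (-0.68 ± 0.26). SAHA replicates 1 and 3, which were high in choroid plexus markers, were the highest for Sgk1. Plin4, a lipid droplet protein, and Nfkbia, the inhibitor of NF-κB, had interactions of -0.70 ± 0.30 and -0.43 ± 0.17. With the choroid plexus mean as a covariate the median of the list was -0.21 and 1 member had an unadjusted p under 0.05. In replicates 4 to 7 the median combination effect of these 14 genes against saline was -0.13, with 1 of 14 above 0. Over all genes that median was 0.0006, with 9863 of 19663 above 0. In the first set the median of these 14 genes was 0.04 over 12 arrays and -0.06 over 11.

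**Figure D4:**
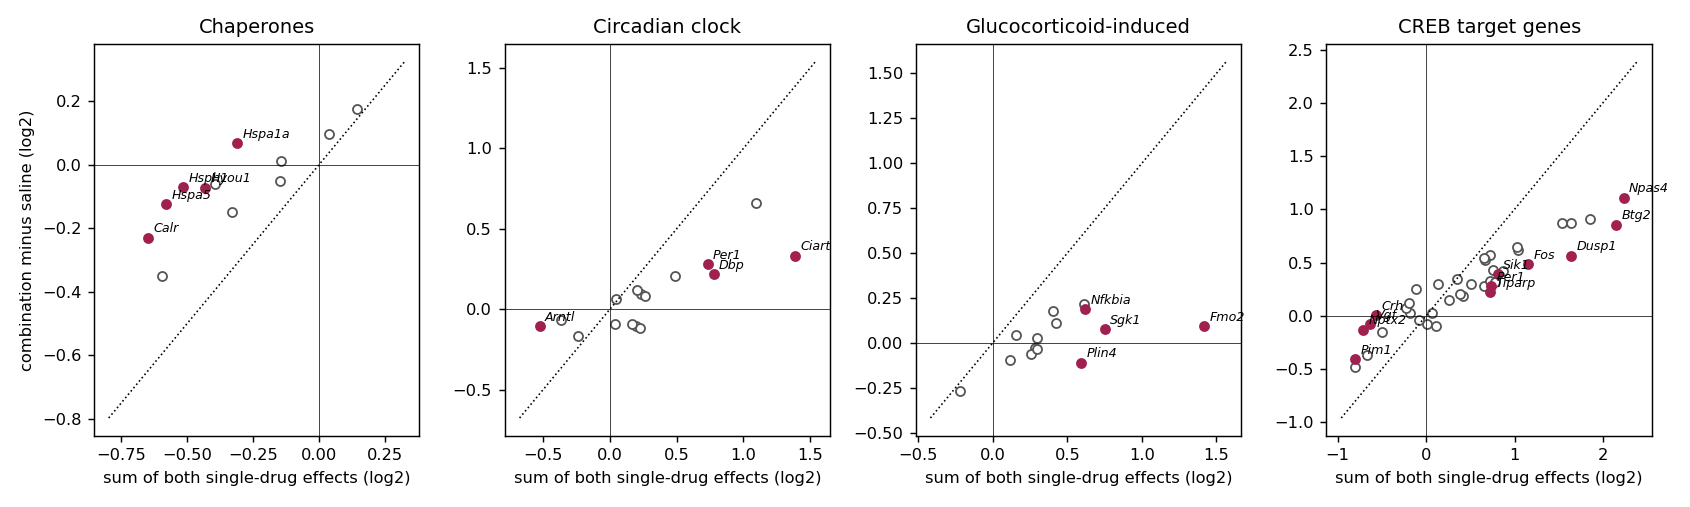
Combination minus saline (vertical axis, log2) against the sum of SAHA minus saline and Tadalafil minus saline (horizontal axis, log2) for the members of 4 gene lists over 12 arrays; each point is a gene, filled points have an unadjusted interaction p under 0.05, and the dotted line is additivity. Chaperones lie above the line, glucocorticoid-induced genes below it, and clock and CREB target genes lie on both sides; both axes share the saline arrays.

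Genes of energy metabolism and of the ribosome were compared with all genes tested, of which 54.1% were above 0 over 12 arrays (median 0.02) and 55.9% over 11 (median 0.03). Of 73 nuclear respiratory chain genes, 63 were above 0 over 12 arrays (86.3%, median 0.17) and 59 over 11 (80.8%, median 0.12). At unadjusted p under 0.05 over 12 arrays 7 of them were positive and 1 negative, against 3.41% and 2.88% of all genes. Cox5a, a subunit of cytochrome c oxidase, was at 9.80, 9.90 and 10.44 in saline, 9.72, 9.34 and 9.65 in SAHA, 9.76, 9.67 and 9.82 in Tadalafil, and 9.81, 9.86 and 10.03 in the combination (0.62 ± 0.22). Saline replicate 3 was its highest array, and without it the interaction was 0.43. Atp5e, the epsilon subunit of ATP synthase, had 0.58 ± 0.21, and Cox5b 0.41 ± 0.15. The exception was Cox8b, an oxidase subunit of muscle and brown fat, at -0.92 ± 0.31, whose highest arrays (6.13, 6.37 and 5.84) were those high in choroid plexus markers. Ribosomal proteins had 45 of 63 above 0 over 12 arrays (median 0.10) and 41 over 11, where their median and that of all genes both rounded to 0.03. Rpsa and Rpl8 were positive (0.51 ± 0.16 and 0.36 ± 0.13) and Rpl3 negative (-0.68 ± 0.27).

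For the transcripts of the drug targets themselves no departure from additivity passed the adjusted test, and the estimates were too imprecise to show additivity. Of 11 Hdac genes 7 (63.6%) were above 0 in both fits, against 54.1% of all genes over 12 arrays and 55.9% over 11. None had an unadjusted p under 0.05 over 12 arrays (smallest p 0.0535 in limma), the estimates running from -0.33 (Hdac1) to 0.32 (Hdac11). Over 11 arrays 1 was positive and 0 were negative at that threshold, against 4.87% and 3.53% of all genes. Hdac4, a class IIa deacetylase, was at 8.94, 9.07 and 8.41 in saline, 8.57, 8.78 and 8.72 in SAHA, 8.72, 8.74 and 8.85 in Tadalafil, and 8.93, 8.86 and 8.84 in the combination. Saline replicate 3 was its lowest array, so the interaction was 0.22 over 12 arrays and 0.42 over 11 (limma adjusted p = 0.527). Hdac2, the class I enzyme most studied in memory, had 0.22 ± 0.12. Pde5a was at 6.99, 7.09 and 6.39 in saline, 6.98, 6.98 and 6.95 in SAHA, 6.81, 7.00 and 6.94 in Tadalafil, and 7.00, 6.97 and 6.87 in the combination. Apart from saline replicate 3 these arrays overlapped, and the interaction was -0.12 ± 0.21 over 12 arrays and 0.10 over 11. Of 22 genes of the cGMP pathway, 12 (54.5%) were above 0 over 12 arrays, near the share of all genes, and 15 (68.2%) over 11. Nos3, the endothelial nitric oxide synthase, had 0.42 ± 0.15, Pde3a, a phosphodiesterase inhibited by cGMP, 0.48 ± 0.20, and Prkg1, protein kinase G1, 0.32 ± 0.17. The lowest estimates were those of Pde1a, a calmodulin-dependent phosphodiesterase, and Npr3, a natriuretic peptide clearance receptor (-0.57 ± 0.63 and -0.51 ± 0.44), which were 0.18 and -0.02 over 11 arrays.

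Microglial, astrocyte and interferon genes had medians below that of all genes in both fits, closer to it over 11 arrays in all but the interferon list. The counts below compare with 54.1% of all genes above 0 over 12 arrays and 55.9% over 11. Of 12 genes of plaque-associated microglia 1 was above 0 over 12 arrays (median -0.26) and 2 over 11 (median -0.11). Clec7a, a microglial lectin receptor, was at 5.54, 5.24 and 5.20 in saline, 6.06, 5.65 and 5.59 in SAHA, 5.18, 5.39 and 5.75 in Tadalafil, and 4.95, 5.24 and 5.07 in the combination (-0.79 ± 0.23). SAHA alone was the highest group and the combination the lowest. Ccl4, a chemokine, had -0.52 ± 0.18. The 14 measured genes of the general microglia list had 5 above 0 in both fits (medians -0.14 and -0.05). Its lowest member was Trem2, the microglial lipid receptor, at -0.60 ± 0.24, and its highest Fcrls, at 0.51 (0.83 over 11 arrays). At unadjusted p under 0.05, 0 were positive and 2 negative over 12 arrays, against 3.41% and 2.88% of all genes. Over 11 arrays 1 was positive and 0 were negative, against 4.87% and 3.53%. Of 17 interferon and MHC genes 5 were above 0 in either fit (medians -0.23 and -0.24). With the choroid plexus covariate, 11 of these 17 were above 0 and the median was 0.13, and that of the plaque microglia list was -0.10. Among 14 astrocyte genes 4 were above 0 over 12 arrays (median -0.23) and 6 over 11 (median -0.07), with Lcn2, a secreted iron-siderophore carrier of reactive astrocytes, at -1.07 ± 0.40 and Steap4, a metalloreductase, at -0.53 ± 0.19. Of the vascular genes Cldn5, the tight junction protein of brain endothelium, had 0.62 ± 0.17 and Slco1a4, an organic anion transporter of the same cells, -0.53 ± 0.15, so endothelial genes did not share a direction. Of 22 amyloid pathway genes 16 were above 0 over 12 arrays (median 0.08) and 13 over 11 (median 0.04), and App was at 0.01 ± 0.11.

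The largest interactions on the array belonged to the choroid plexus. All 11 measured markers were negative in both fits, with medians of -1.80 and -1.78 and with 9 and 8 members at unadjusted p under 0.05. Of all 19663 genes, 9030 and 8671 were negative, 2.88% and 3.53% at that p. Ttr, the thyroid hormone carrier transthyretin, was at 11.78, 10.56 and 10.10 in saline, 13.76, 12.72 and 13.84 in SAHA, 11.17, 12.23 and 13.62 in Tadalafil, and 12.74, 12.12 and 10.67 in the combination (-3.12 ± 0.92). Tadalafil and the combination spread widely for Ttr, and each overlapped both saline and SAHA. Every SAHA array was above every saline array. When SAHA replicates 1 and 3 and Tadalafil replicate 3 were left out, which leaves 1 SAHA array assumed to vary like the other groups, 1160 genes had an unadjusted interaction p under 0.05 and none an adjusted one.

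The medians of the synaptic and CA1 lists changed sign when saline replicate 3 was left out, whereas those of several other regional lists did not. Over 12 arrays 7 of 21 postsynaptic, 8 of 19 presynaptic, 4 of 9 glutamate receptor and 2 of 7 CA1 genes were above 0. Over 11 arrays these counts were 18, 15, 9 and 7. Among all genes 54.1% were above 0 over 12 arrays and 55.9% over 11. Ccn3, a secreted matricellular protein of CA1, was at 9.71, 9.72 and 6.95 in saline, 9.84, 9.81 and 9.19 in SAHA, 10.11, 9.85 and 9.70 in Tadalafil, and 9.86, 9.75 and 10.22 in the combination, so its interaction moved from -0.76 to 0.16. Thalamus markers went from 10 of 10 above 0 (median 0.56) to 6 of 10 (median 0.21). Saline replicate 2, the next highest array for these markers, stayed in the 11-array fit. Leaving out 1 more of the 11 arrays moved the thalamus median between -0.09 and 0.45. Glra1, a glycine receptor subunit, was at 8.95 in saline replicate 3 and at 5.04 to 5.63 in the other 11 arrays, and its interaction moved from 1.43 ± 0.95 to 0.27. Dentate gyrus genes stayed below 0 at the median (-0.35 and -0.10), and striatum (0.39 and 0.19) and interneuron genes (0.19 and 0.26) above it. Combination replicate 3 was low in dentate gyrus markers. Leaving out 1 more of the 11 arrays moved the dentate median between -0.29 and 0.14. Myelin genes went from 5 to 1 of 11 above 0. For these lists the 11-array values are the ones that do not rest on saline replicate 3.

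**Figure D5:**
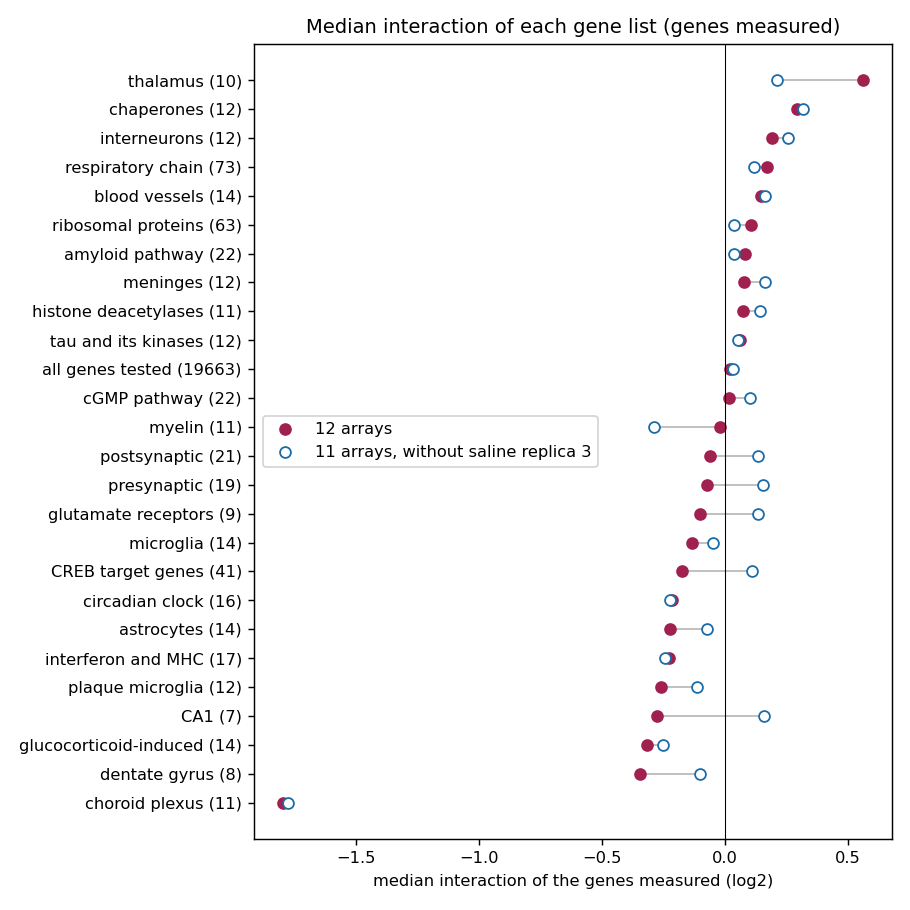
Median interaction (log2) of each gene list over 12 arrays (filled) and over 11 arrays without saline replicate 3 (open), with the number of genes measured in parentheses. Choroid plexus lies lowest at -1.80 and -1.78, chaperones stay at 0.29 and 0.32, and the CREB target, synaptic and CA1 lists cross 0.

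A last view asked for which genes the arrays separated without overlap. All 6 single-drug arrays were above all 6 saline and combination arrays in 25 genes (0.127%) and below them in 42 (0.214%). Among so many genes some split this way by chance, and whether these counts exceed that number was not tested. Besides Fmo2, Ciart, Platr30, Kcnh4 and Slc16a4, the 25 included Irgm1, an interferon-induced GTPase (-0.63), Usp2, a deubiquitinase with rhythmic expression (-0.72), and the splicing genes Sf3b1 (-0.33), Luc7l2 (-0.30), Son (-0.26) and Arglu1 (-0.39), with interactions given over 12 arrays. The 42 included Vgf, Mettl16 and Spry4, the metabolic genes Fasn (fatty acid synthase, 0.36) and Irs1 (insulin receptor substrate, 0.27), Xbp1, a transcription factor of the ER stress response (0.42), Vegfb, a vascular growth factor (0.37), and Tubb3, a neuronal tubulin (0.60). These genes were picked from the 67 after their values had been seen.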

How the data were processed

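Hippocampal RNA was measured on Affymetrix Mouse Gene 2.0 ST arrays. Background correction, normalization and summarisation were done by the authors with RMA (version not given), and the deposited log2 table covers 24 arrays. Array medians were 5.90 to 5.98. Depth does not apply to arrays, and their number limits the precision. Of 41345 probe sets, 23521 name 1 gene, 1820 several and 16004 none in the platform annotation; symbols were updated through RefSeq (GRCm38.p6) for 23328. Probe sets naming 1 gene were kept above 4 in at least 2 arrays of each group, and the probe set of highest mean represented a gene, leaving 19663 genes, 17022 of them protein coding. The labels call the replicates biological; shared litters, cages or days are not known here.

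The groups were fitted with limma 3.58.1 in R 4.3.3, with 1 mean per group over 12 or 11 arrays, Benjamini-Hochberg adjustment over all genes and a threshold of 0.05. Replicates 4 to 7 were fitted apart. The fit was tested on simulated data. All comparisons share their saline arrays. Gene lists are described by counts and medians without a test. The members and lists were chosen with earlier results of these data known. Genes were named by p rank in both directions and both fits, by rank within each list, as drug targets (Hdac genes, Pde5a), or for moving most without saline replicate 3, 88 in all; a few others are marked as chosen after their values were seen, as are members named within a list. Alternatives were other filters, probe set rules, scalings, array weights, priors, replicate blocks, pooled arrays, linear-scale additivity and leaving out each array. Doses, scanner files and the 4 CM-414 arrays were not used for the groups here, the latter only for 1 estimate of the spread.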

Additional observations from a re-analysis of the deposited data

Results flagged for a closer look

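Groups of 3 arrays were not tested for single arrays far from the rest. In replicates 4 to 7, where each group has 4, a Dixon test over 52 groups (26 genes, those of smallest p in either fit) singled out 4 values: Fmo2 in saline replicate 7 (5.09), Tufm in saline replicate 6 (8.48), Olfr524 in combination replicate 5 (4.90) and Snora23, a small nucleolar RNA, in saline replicate 4 (9.82). Chance singles out about 1 in 20 such groups.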

How the results depend on the processing

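Of 88 named genes, 71 kept the sign of their interaction under every alternative that kept the gene (25 for 79 genes, 24 for the other 9, which 1 filter removed). Leaving out 1 array moved the rest as follows: Ccn3 -1.23 to 0.16, Fezf2 -1.15 to 0.38, Gm10754 -1.15 to 0.42, Ptgs2 -0.97 to 0.53, Tfap2d -0.088 to 1.90, Pde5a -0.26 to 0.10, Hdac3 -0.078 to 0.073, Hdac6 -0.0053 to 0.15, Hdac7 -0.022 to 0.10, Hdac8 -0.077 to 0.056 and Hdac10 -0.15 to 0.062. Array weights gave Fezf2 0.10, Gm10754 0.23, Hdac10 0.037, Pde5a 0.029 and Ptgs2 0.34, pooling 20 arrays Ptgs2 0.048 and Rpl3 0.10, the linear scale Ptgs2 0.037, and centring Hdac3 0.00021. With the choroid plexus covariate (added after seeing the data) Clu was 0.061, Dynlrb2 0.48, Igf2 0.53, Gabra3 -0.15 and Hdac9 -0.12. Without the 3 arrays high in these markers (also added, leaving 1 SAHA array) Clu was 0.022, Dynlrb2 0.37, Hdac3 0.017, Igf2 0.19 and Hdac9 -0.10. Array weights called 2 interactions over 12 arrays (Ciart and Fmo2), with 2009 genes at unadjusted p under 0.05. Pooling replicates 1 to 7 called 4 (Ciart, Fmo2, Lncpint, Polr2i), with 2250 genes, and leaving out 1 array 0 to 1 (Fmo2 without SAHA replicate 2) with 958 to 1651. Over 11 arrays the floor of 5, protein-coding genes only, array weights and the replicate block each called 1 (Ciart), the trended robust prior 4, the spread of all 24 arrays 3, pooling 40 (2957 genes at unadjusted p), and leaving out 1 array 0 to 1 (Ciart without SAHA replicate 3), with 1399 to 1901. SAHA against saline was called over 12 arrays for 1 gene with array weights, 1 with the spread of all 24 arrays, 3 on pooling and 0 to 1 on leaving out 1 array. Over 11 arrays it was called for 16 with the trended robust prior, 2 with the spread of all 24 arrays, 32 on pooling, 0 on the linear scale, 0 without the 3 choroid-high arrays and 0 to 6 on leaving out 1 array (6 without SAHA replicate 2, 2 without Tadalafil replicate 1, and 0 without saline replicate 1 or 2, SAHA replicate 1 or any combination array). Tadalafil against saline over 11 arrays was called for 5 with the trended robust prior, the combination against saline for 2 without a filter and 5 with that prior, the combination against SAHA for 1 without the 3 arrays, and the combination against Tadalafil for 1 (Ifit1) with the spread of all 24 arrays, as over 12 arrays. The cause was not tested. Replicate numbers did not pair the arrays: over 18 same-numbered pairs the deviations correlated from -0.18 to 0.24 (median -0.039), and with the replicate block 0 interactions were called over 12 arrays, with 1182 genes at unadjusted p under 0.05.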
